A study of Rattus norvegicus and Mus musculus with 251 samples.

Results

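The 31 genes described here make up the cholesterol pathway from acetyl-CoA units to cholesterol, its regulators, and the synthesis, elongation and desaturation of fatty acids. They were chosen by symbol, with earlier results of these data known, and each of the 31 was found among the 46078 identifiers of the mouse count table. They divide by role into 9 genes from the mevalonate steps to squalene, 10 from squalene to cholesterol, 4 regulators and sterol carriers, and 8 of fatty acid synthesis, elongation and desaturation. All 31 passed the filter on low counts in both regions.

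C57BL/6J mice of both sexes gave 30 libraries from punches of prefrontal cortex (PFC) and 32 from punches of nucleus accumbens (NAc). The mice drank a saline or a morphine solution and were killed at different times, in 4 groups labelled Sal, Chronic mor, Mor + 24h and Mor + 2W. They are called saline, chronic morphine, 24 h after morphine and 2 weeks after morphine here. In that order PFC had 6, 8, 9 and 7 libraries and NAc had 7, 8, 9 and 8. The labels give neither the age of the mice nor the dose, and they do not say whether a replicate number is an animal, so p-values measure the spread between these libraries. The labels name the cell type as neuron, but the punches are bulk tissue: the oligodendrocyte marker mean ranged from 6.31 to 8.60 log2 CPM in PFC and from 7.48 to 9.30 in NAc. CPM are counts scaled to the size of the library. In bulk tissue, fewer cells of a type and less RNA per cell cannot be told apart.

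Cholesterol in the adult brain is made locally, since plasma lipoproteins do not cross the blood-brain barrier. Astrocytes and oligodendrocytes are its main producers, and myelin holds most of it. When sterols in the endoplasmic reticulum are low, the transcription factors SREBP1 and SREBP2, encoded by Srebf1 and Srebf2, are carried to the Golgi by SCAP, cleaved, and enter the nucleus to raise transcription of these genes. INSIG1 holds SCAP in the endoplasmic reticulum when sterols are abundant, and Insig1 is itself a target of the SREBPs.

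Totals counted to genes ranged from 5182601 to 41532464 in PFC and from 22387525 to 43963295 in NAc. The lowest belonged to PFC 2 weeks after morphine replicate 10, in which 21.1% of reads were not aligned, against 24936879 counts in the next PFC library. In 4 NAc libraries (saline 2 and 6, chronic morphine 25, 24 h after morphine 23) the mean of the striatal neuron markers was under 6 log2 CPM. PFC chronic morphine replicate 31 had a choroid plexus marker mean of 6.71 log2 CPM. Values without the shallow library, without the libraries of low striatal markers or without replicate 31 are given where they bear on a result named here.

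Expressed per length of transcript, as log2 RPKM (counts scaled to library size and exon length), Scd2 had the highest level of the 31 in both regions. Scd2 encodes the main stearoyl-CoA desaturase of brain. Its mean was 8.23 ± 0.18 log2 RPKM in PFC (SD, n = 30) and 8.29 ± 0.24 in NAc (SD, n = 32). Fads1, the delta-5 desaturase of polyunsaturated fatty acids, was next in PFC at 6.15 ± 0.17 log2 RPKM (SD, n = 30), and Hmgcs1, a synthase at the start of the mevalonate pathway, followed at 5.96 ± 0.19. Those neighbours were closer together than the sum of their SDs. In NAc the second place went to Acly, which makes cytosolic acetyl-CoA from citrate, at 5.86 ± 0.26 log2 RPKM (SD, n = 32), and Fads1 followed at 5.64 ± 0.11. The lowest levels in both regions were those of Idi1 and of Fdps, the isomerase and the synthase that lead to farnesyl diphosphate. Fdps had 0.51 ± 0.36 log2 RPKM in PFC (SD, n = 30) and -0.07 ± 0.29 in NAc (SD, n = 32), and Idi1 had 1.29 ± 1.0 and 0.99 ± 0.35. Both genes have processed copies in the genome, and a median of 14.7% of reads aligned to several places and were given to no gene, so these levels are uncertain. Fdps also overlaps Gm43738 and Gm22935 on its own strand, and how shared reads were counted is not stated.

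The comparison with saline in PFC asked whether the pathway differed during and after morphine. Insig1, on chromosome 5 from 28071363 to 28078662 (GRCm38, plus strand, no overlapping gene), was the 1 member of 31 that passed the test under chronic morphine, and it was lower. Its level was 6.30, 6.65 and 7.4 log2 CPM (lowest, median and highest of 6) in saline libraries and 5.78, 6.07 and 6.56 in the 8 chronic morphine libraries. The groups overlapped, since the highest chronic library lay above the lowest saline library. With both sexes weighted equally, the log2 fold change was -0.70 ± 0.15 (SE, edgeR quasi-likelihood test, Benjamini-Hochberg adjusted p = 0.0236), or 0.617 of the saline level. Of all 17966 genes tested, 75 were called (0.417%), and 55 were called lower (0.306%). DESeq2 gave -0.70 with an adjusted p of 0.00295, where it called 0.974% of all genes.

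At 24 h after morphine Insig1 stood at 5.90, 6.21 and 6.83 log2 CPM, and its log2 difference from saline was -0.48 ± 0.14 (SE, edgeR adjusted p = 0.621). At 2 weeks it stood at 5.88, 6.52 and 6.80 log2 CPM, with a difference of -0.26 ± 0.15 (SE, edgeR adjusted p = 0.947), or -0.15 without the shallow library. The plot of Insig1 by library shows the chronic group lowest and the 2 weeks group nearest to saline. Against chronic morphine the 2 weeks group differed by 0.44 ± 0.15 (SE, edgeR adjusted p = 0.162). Without the shallow library of that group this difference was 0.54 (edgeR adjusted p = 0.0492), 1 member of 31 beside 0.95% of all genes called.

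**Figure D1:**
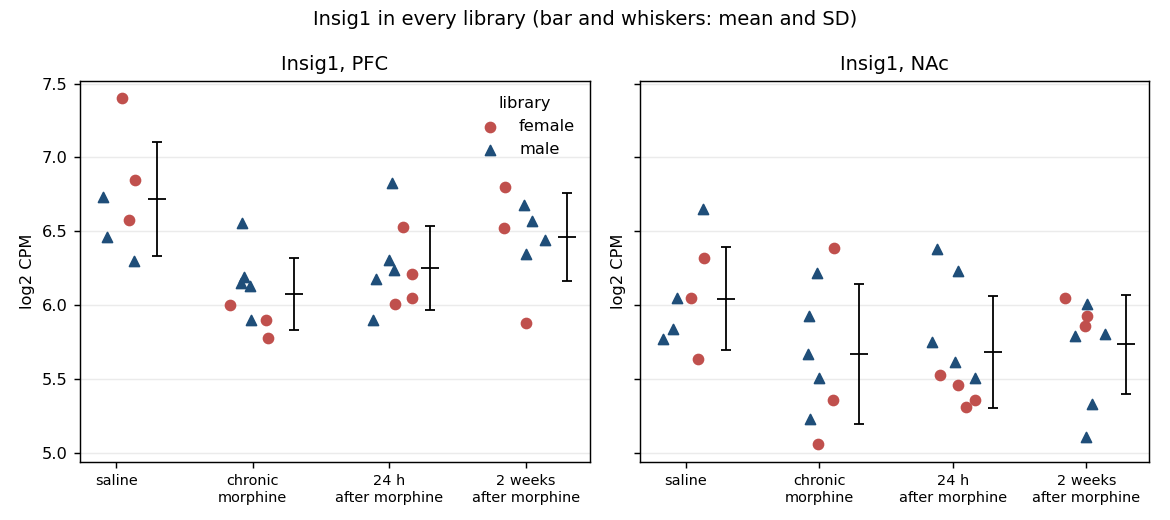
Insig1 in every PFC and NAc library (log2 CPM, points by sex) in the 4 treatment groups, with the mean and SD of each group. In PFC the saline libraries run from 6.30 to 7.4 and the chronic morphine libraries from 5.78 to 6.56, and in NAc each morphine group overlaps saline.

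The call on Insig1 was kept in 24 of the 30 fits that each left out 1 library, in the one without chronic replicate 31 too (-0.69, edgeR adjusted p = 0.0353). It was also kept with median-of-ratios factors, without the low-count filter, with the oligodendrocyte covariate (-0.66, edgeR adjusted p = 0.0103) and with 2 surrogate variables (-0.56, edgeR adjusted p = 0.0328). It was lost when saline replicate 1, 5 or 6 or chronic replicate 26, 27 or 28 was left out, with log2 fold changes from -0.57 to -0.72 and the largest adjusted p, 0.157, without saline 1. It was also lost when sex was not in the model (-0.67, edgeR adjusted p = 0.0506 for Insig1).

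In NAc, Insig1 ran from 5.64 to 6.65 log2 CPM in saline libraries (median 6.05), from 5.06 to 6.39 under chronic morphine (median 5.59), from 5.31 to 6.38 at 24 h (median 5.53) and from 5.11 to 6.05 at 2 weeks (median 5.83). Each morphine group overlapped saline, and at 2 weeks the highest library stood at the saline median. The log2 differences from saline were -0.34 ± 0.19 (SE, edgeR adjusted p = 0.426), -0.40 ± 0.18 (0.389) and -0.28 ± 0.19 (0.878). The estimate was below 0 in each of the 6 contrasts with saline, which share saline libraries within a region.

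Promoters were looked at because SREBPs act together with NF-Y, a factor that binds CCAAT, at genes of this pathway. Only rat promoter sequences were used (RefSeq, GRCr8, windows of 300 bases around the start of the gene), which matched 23 of the 31 symbols, so they stand beside mouse counts as sequences of another species. Insig1 is shown as the gene that was called, and Hmgcs1 as a member whose deviations in NAc followed those of the other members. Capitals mark CCAAT on either strand (ATTGG on the other) and the palindrome CACGTG. The rat Insig1 window lies on the minus strand at chr4:8057720-8058019 and the rat Hmgcs1 window on the plus strand at chr2:53382054-53382353.
Insig1: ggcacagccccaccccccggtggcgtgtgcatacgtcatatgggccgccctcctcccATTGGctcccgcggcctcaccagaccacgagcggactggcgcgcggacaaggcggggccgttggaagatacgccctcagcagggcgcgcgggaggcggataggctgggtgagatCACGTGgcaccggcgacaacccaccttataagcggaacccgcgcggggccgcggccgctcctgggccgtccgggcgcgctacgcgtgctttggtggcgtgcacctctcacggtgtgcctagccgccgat
Hmgcs1: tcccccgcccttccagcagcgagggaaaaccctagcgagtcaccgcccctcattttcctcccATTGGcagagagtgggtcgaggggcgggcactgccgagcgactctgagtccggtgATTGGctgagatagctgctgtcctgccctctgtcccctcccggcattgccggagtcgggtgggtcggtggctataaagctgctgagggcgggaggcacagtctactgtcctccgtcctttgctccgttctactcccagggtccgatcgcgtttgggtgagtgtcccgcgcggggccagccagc
Insig1 held 1 CCAAT match and 1 CACGTG, and Hmgcs1 held 2 CCAAT matches and no CACGTG. A match to CCAAT on either strand was in 19 of the 23 members, and in 37.5% of the 33469 rat promoters of the same length. CACGTG was in 2 members, Insig1 and Sc5d, and in 6.42% of all promoters. TCACNCCAC, a form of the sterol regulatory element, was in 0 of the 23 windows and in 1.12% of all. A match is a description of these letters.

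The 8 fatty acid genes had estimates above 0 in PFC under chronic morphine, and none of the 8 was called by edgeR. An unadjusted p under 0.05 was found for 3 of the 8, against 7.91% of all genes, and DESeq2 called 0 of the 8. Acaca, the acetyl-CoA carboxylase that commits carbon to fatty acids, lies on chromosome 11 from 84129672 to 84401651 (GRCm38). It was at 5.51, 5.61 and 5.82 log2 CPM in saline libraries and at 5.74, 6.06 and 6.41 under chronic morphine. The groups overlapped, with most chronic libraries above the highest saline library. The log2 difference was 0.42 ± 0.14 (SE, edgeR adjusted p = 0.372). When the shallow PFC library was left out, the same contrast gave 0.42 with an edgeR adjusted p of 0.0346, 178 of 18536 genes were called (0.96%), and Acaca joined Insig1 as the second member called.

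Fasn, the fatty acid synthase, had 8.02, 8.28 and 8.66 log2 CPM in saline libraries and 8.22, 8.61 and 9.02 under chronic morphine, a difference of 0.29 ± 0.11 (SE, edgeR adjusted p = 0.481). Acly had 7.29, 7.44 and 7.59 against 7.34, 7.68 and 7.81 log2 CPM, a difference of 0.18 ± 0.08 (SE, edgeR adjusted p = 0.618). Both pairs of groups overlapped. The median of the 8 was 0.10 at that stage, while all genes tested had a median of 0.01. At 24 h it was -0.01 and at 2 weeks 0.02. At 24 h after morphine, Acaca had the highest estimate of the group, with 5.49, 5.84 and 6.06 log2 CPM and a difference of 0.19 ± 0.14. Fads2, the delta-6 desaturase, had the lowest: its saline libraries stood at 6.69, 6.87 and 7.02 log2 CPM and those at 24 h at 6.48, 6.81 and 6.91, a difference of -0.10 ± 0.12. At 2 weeks the extremes were Elovl6 and Fads2. Elovl6, which elongates palmitate, had 5.52, 5.70 and 5.78 log2 CPM in saline libraries and 5.47, 5.92 and 6.21 at 2 weeks, a difference of 0.26 ± 0.12. Fads2 had 6.14, 6.76 and 7.15 log2 CPM there, a difference of -0.14 ± 0.13. Without the shallow library these differences were 0.26 and -0.03. The edgeR adjusted p was at least 0.947 in each of these later contrasts.

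**Figure D2:**
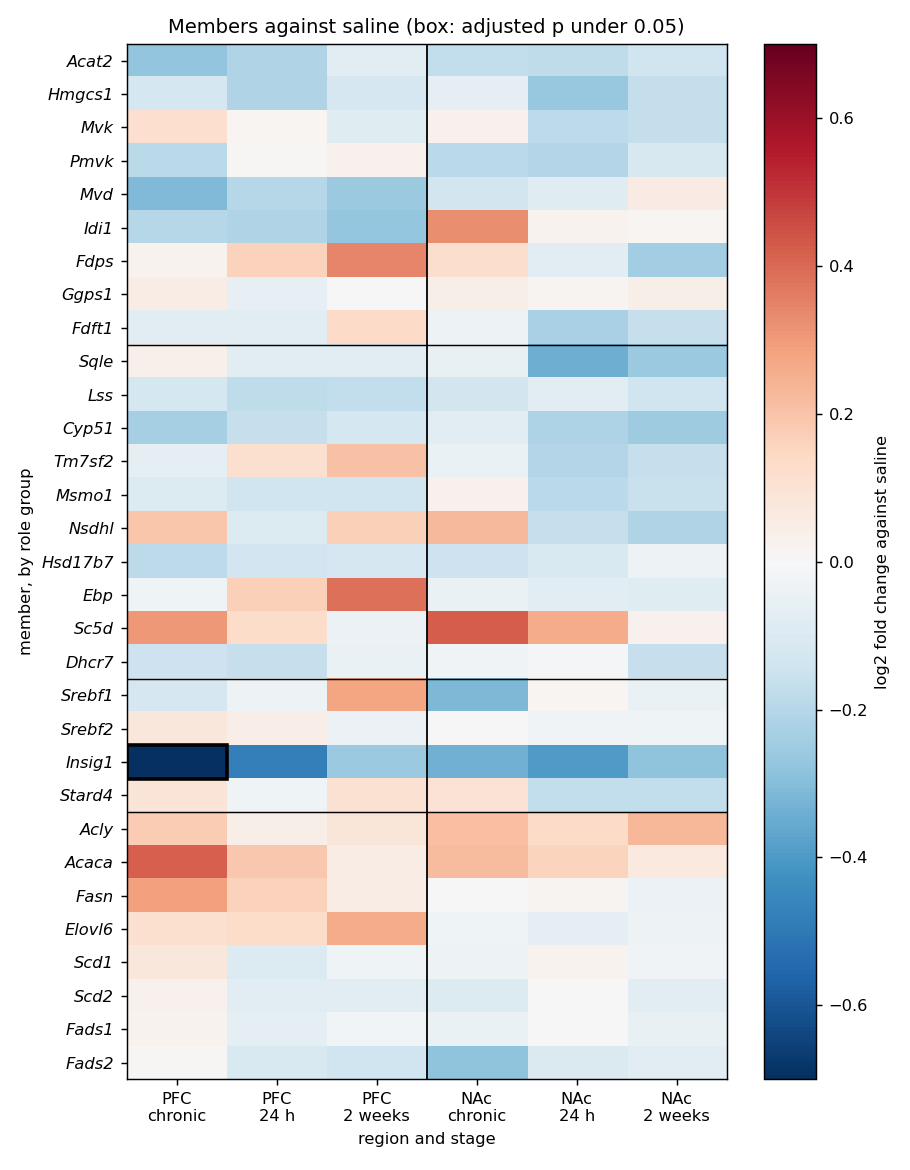
Log2 fold change against saline for the 31 members (rows, by role group) in the 3 stages of PFC and of NAc (columns), with a box where the edgeR adjusted p is under 0.05. The 1 box is Insig1 in PFC under chronic morphine (-0.70), and the fatty acid rows of that column are all above 0, up to 0.42.

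The 9 genes from the mevalonate steps to squalene had a median log2 difference of -0.12 under chronic morphine in PFC, -0.08 at 24 h and -0.07 at 2 weeks, with 6 of 9 below 0 at each stage and 0 called. Mvd, which makes isopentenyl diphosphate, had the lowest estimate under chronic morphine. Its saline libraries stood at 4.29, 4.79 and 5.05 log2 CPM and its chronic libraries at 3.90, 4.49 and 4.81, a difference of -0.31 ± 0.19 (SE, edgeR adjusted p = 0.748). Mvk, the mevalonate kinase, had the highest, with 4.33, 4.53 and 4.64 in saline, 4.32, 4.49 and 4.98 under chronic morphine and a difference of 0.12 ± 0.13. At 24 h the extremes were Fdps and Idi1, both low in counts. Fdps had 1.99, 2.37 and 2.80 log2 CPM in saline libraries and 1.99, 2.53 and 3.05 at 24 h, a difference of 0.16 ± 0.22. Idi1 had 2.86, 3.35 and 3.65 against 2.62, 3.07 and 3.90, a difference of -0.21 ± 0.29. They were the extremes at 2 weeks too, where the shallow library lay at the end of both ranges. Fdps stood at 2.29, 2.49 and 3.58 log2 CPM (difference 0.34 ± 0.23) and Idi1 at -1.99, 3.30 and 3.45 (difference -0.27 ± 0.31). The values of 3.58 and -1.99 are those of replicate 10. Without it the differences were 0.13 for Fdps, still the highest of the 9, and -0.03 for Idi1, and Mvk was lowest at -0.18.

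The 10 genes from squalene to cholesterol had medians of -0.08, -0.11 and -0.06 at the 3 stages in PFC, with 7 of 10 below 0 at each and 0 called. Sc5d, which introduces the C5 double bond of the sterol ring, was highest under chronic morphine, with 4.39, 4.84 and 5.56 log2 CPM in saline libraries, 5.01, 5.19 and 5.50 in chronic ones and a difference of 0.30 ± 0.19 (SE, edgeR adjusted p = 0.761). Cyp51, the lanosterol demethylase, was lowest, with 6.20, 6.49 and 6.61 against 6.00, 6.27 and 6.37 and a difference of -0.24 ± 0.12 (SE, edgeR adjusted p = 0.679). Its groups overlapped. At 24 h, Ebp, the sterol isomerase, had 3.63, 3.90 and 4.04 log2 CPM in saline libraries and 3.58, 3.94 and 4.44 at 24 h, a difference of 0.17 ± 0.15. Lss, the cyclase that makes lanosterol, had 5.14, 5.19 and 5.31 against 4.01, 5.06 and 5.36, a difference of -0.18 ± 0.16. The low Lss value, 4.01, came from 1 library of 9, replicate 20. At 2 weeks Ebp had 3.78, 4.01 and 5.26 log2 CPM (difference 0.39 ± 0.17) and Lss had 4.0, 5.19 and 5.32 (difference -0.17 ± 0.17), with replicate 10 holding the 5.26 and the 4.0. Without it the differences were 0.16 for Ebp and -0.03 for Lss.

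Among the regulators in PFC, Stard4, a cytosolic sterol carrier, had 4.62, 5.14 and 5.42 log2 CPM in saline libraries and 5.02, 5.19 and 5.39 under chronic morphine, a difference of 0.09 ± 0.13. Its sign turned (-0.01) without saline replicate 3. Srebf2 had 7.89, 8.21 and 8.45 in saline libraries and 8.07, 8.25 and 8.45 at 24 h, a difference of 0.05 ± 0.10, which turned to -0.03 without saline replicate 5. Its libraries at 24 h all lay within the saline range. Srebf1 had 5.96, 6.34 and 6.57 against 6.30, 6.39 and 7.26 at 2 weeks, a difference of 0.28 ± 0.13 (SE, edgeR adjusted p = 0.947). Without the shallow library this difference was 0.12. Srebf1 overlaps Rai1, and the counting is not stated to use strand, so reads from these genes may not be told apart.

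Outside Insig1 no member was called against saline in PFC, and 0 of 31 were called at 24 h and at 2 weeks. Of all genes, 0.0779% were called at 24 h and 0.00557% at 2 weeks. In those contrasts 2 and 3 members had an unadjusted p under 0.05 in edgeR, counts not set beside a share of all genes. DESeq2 called 0 members where it called 0.256% and 0.0668% of all genes. Without the shallow library the count at an unadjusted p under 0.05 was 1 at 2 weeks, and the members' median was -0.01. With all libraries the median was 0.01 under chronic morphine, -0.08 at 24 h and -0.04 at 2 weeks, beside 0.01, 0.01 and -0.05 for all genes. The oligodendrocyte markers were below 0 in 8 of 10 under chronic morphine (median -0.06), 10 of 10 at 24 h (-0.31) and 10 of 10 at 2 weeks (-0.24), with 0 called. At 2 weeks the shallow library had an oligodendrocyte marker mean of 6.26 log2 CPM, while the others ran from 7.73 to 8.37. Saline libraries ran from 7.60 to 8.30. The marker differences without the shallow library are not given here, and the part of these markers in the members' values was not tested. The groups of libraries overlapped for each of the 31 members at each stage, as they did for all but 0.601%, 0.161% and 0.134% of genes. Genes were also simulated at these depths, and 17629 of them passed the filter on low counts in PFC. Among these, edgeR recovered 24.5% of those changed 1.5-fold and 61.7% of those changed 2-fold in the chronic contrast. Smaller differences could have gone undetected.

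In NAc none of the 31 members was called against saline, although 311 of 18382 genes (1.69%) were called under chronic morphine, 30 (0.163%) at 24 h and 1 (0.00544%) at 2 weeks. Unadjusted p under 0.05 was reached by 2, 6 and 0 members, or 6.45%, 19.4% and 0%, beside 15.2%, 12.1% and 6.44% of all genes. DESeq2 called 1 member under chronic morphine, Sc5d, and 0 at the later stages, where it called 3.74%, 0.908% and 0.223% of all genes. The median over the members was -0.04, -0.08 and -0.09, beside -0.01, -0.01 and 0.00 for all genes, and 21, 22 and 25 of the 31 estimates were below 0. Those 3 contrasts share the saline libraries, of which 2 had low striatal markers. All 6 striatal neuron markers were above 0 at each stage, with medians of 0.55, 0.33 and 0.41 and 0 called, and their part in the members' values was not tested. The library ranges overlapped in NAc for each of the 31 members, and did not for 0.381%, 0.125% and 0.0979% of all genes. In simulated data edgeR recovered 51% of 1.5-fold changes and 69.1% of 2-fold changes in the chronic contrast of NAc (18059 genes simulated).

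Sc5d (chromosome 9, 42251595 to 42264256, GRCm38) had the highest estimate among the members in NAc. Its saline libraries stood at 4.41, 5.24 and 5.46 log2 CPM, the chronic libraries at 4.88, 5.29 and 5.92, those at 24 h at 4.72, 5.31 and 5.47 and those at 2 weeks at 4.68, 5.05 and 5.16. The saline group was the widest, because its 3 females (4.41, 4.50 and 4.89) lay below its 4 males, which ran from 5.24 to 5.46. In each of the other groups the sexes overlapped. With both sexes weighted equally, the log2 difference was 0.42 ± 0.13 under chronic morphine (SE, edgeR adjusted p = 0.0795), 0.26 ± 0.12 at 24 h (0.385) and 0.03 ± 0.12 at 2 weeks (0.975). The chronic estimate passed the test without 24 h replicate 17 (adjusted p = 0.05 after rounding) and without chronic replicate 30 (adjusted p = 0.045). Over the fits that each left out 1 library its adjusted p ran up to 0.177. The share of all genes called in those fits is not given here.

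Other squalene-to-cholesterol genes were mostly below 0 in NAc, 7 of 10 under chronic morphine, 9 at 24 h and 9 at 2 weeks, with 0 called. Hsd17b7, a sterol ketone reductase, was the lowest under chronic morphine, with 3.85, 4.11 and 4.25 log2 CPM in saline libraries and 3.76, 3.92 and 4.22 in chronic ones, a difference of -0.14 ± 0.08. Sqle, the squalene epoxidase and a rate-limiting enzyme, was the lowest later. It had 5.40, 5.78 and 6.56 in saline libraries, 5.03, 5.64 and 5.97 at 24 h (difference -0.34 ± 0.16, SE, edgeR adjusted p = 0.404) and 5.24, 5.72 and 5.99 at 2 weeks (difference -0.26 ± 0.17, adjusted p = 0.864). Both pairs of groups overlapped.

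Of the mevalonate genes in NAc, Idi1 had the highest estimate under chronic morphine, with 2.19, 2.73 and 3.48 log2 CPM in saline libraries, 2.49, 2.83 and 3.91 in chronic ones and a difference of 0.33 ± 0.18 (SE, edgeR adjusted p = 0.419). At 24 h it stood at 2.5, 2.81 and 3.27, a difference of 0.03 ± 0.18 whose sign turned without saline 3 or 5, without 24 h replicate 23, and without sex in the model. Pmvk, the phosphomevalonate kinase, was lowest under chronic morphine, with 4.91, 5.22 and 5.66 against 4.63, 4.99 and 5.43, a difference of -0.19 ± 0.11. Hmgcs1 was lowest at 24 h. It had 7.43, 7.85 and 8.39 log2 CPM in saline libraries and 7.21, 7.57 and 7.91 at 24 h, a difference of -0.27 ± 0.13 (SE, edgeR adjusted p = 0.407). At 2 weeks the extremes were Mvd, with 3.70, 3.94 and 4.48 against 3.78, 3.98 and 4.21 (difference 0.06 ± 0.08), and Fdps, with 1.70, 2.15 and 2.65 against 1.66, 1.89 and 2.20 (difference -0.24 ± 0.16). Each of these pairs of groups overlapped.

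Srebf1 in NAc, the regulator of fatty acid genes, was at 6.69, 6.79 and 7.13 log2 CPM in saline libraries, 6.31, 6.56 and 6.76 under chronic morphine, 6.48, 6.91 and 7.35 at 24 h and 6.31, 6.83 and 7.14 at 2 weeks. The chronic group lay lowest and overlapped saline by a narrow margin. Its log2 difference was -0.32 ± 0.11 under chronic morphine (SE, edgeR adjusted p = 0.147) and 0.02 ± 0.11 at 24 h. With the oligodendrocyte marker mean as a covariate the chronic estimate was -0.31 with an edgeR adjusted p of 0.034, where 2.65% of all genes were called. Stard4 had 4.61, 4.94 and 5.48 in saline libraries and 4.61, 4.81 and 5.60 under chronic morphine, a difference of 0.10 ± 0.14 that turned to -0.06 without chronic replicate 25, a library of low striatal markers.

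In the fatty acid group of NAc the counts below 0 were 6, 3 and 6 of 8 by stage, with 0 called and 0 at an unadjusted p under 0.05. Acaca stood at 5.16, 5.84 and 5.98 log2 CPM in saline libraries, 5.42, 5.72 and 6.44 under chronic morphine (difference 0.22 ± 0.15) and 5.61, 5.88 and 6.26 at 24 h (difference 0.15 ± 0.15). Fads2 stood at 6.28, 6.69 and 7.21 in saline libraries, 5.76, 6.28 and 6.99 under chronic morphine (difference -0.28 ± 0.17), 6.05, 6.67 and 7.17 at 24 h (-0.10 ± 0.16) and 6.27, 6.67 and 6.91 at 2 weeks (-0.07 ± 0.17). Its later differences turned above 0 without saline replicate 2 or without the 4 libraries of low striatal markers. Acly at 2 weeks had 8.07, 8.32 and 9.01 log2 CPM against 8.09, 8.20 and 8.36 in saline libraries, a difference of 0.23 ± 0.14 (SE, edgeR adjusted p = 0.851). Its saline libraries lay within the range of those at 2 weeks. When the 4 libraries of low striatal markers were left out, 0 members were called at each stage of NAc, beside 0.572%, 0.016% and 0.00535% of all genes.

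**Figure D3:**
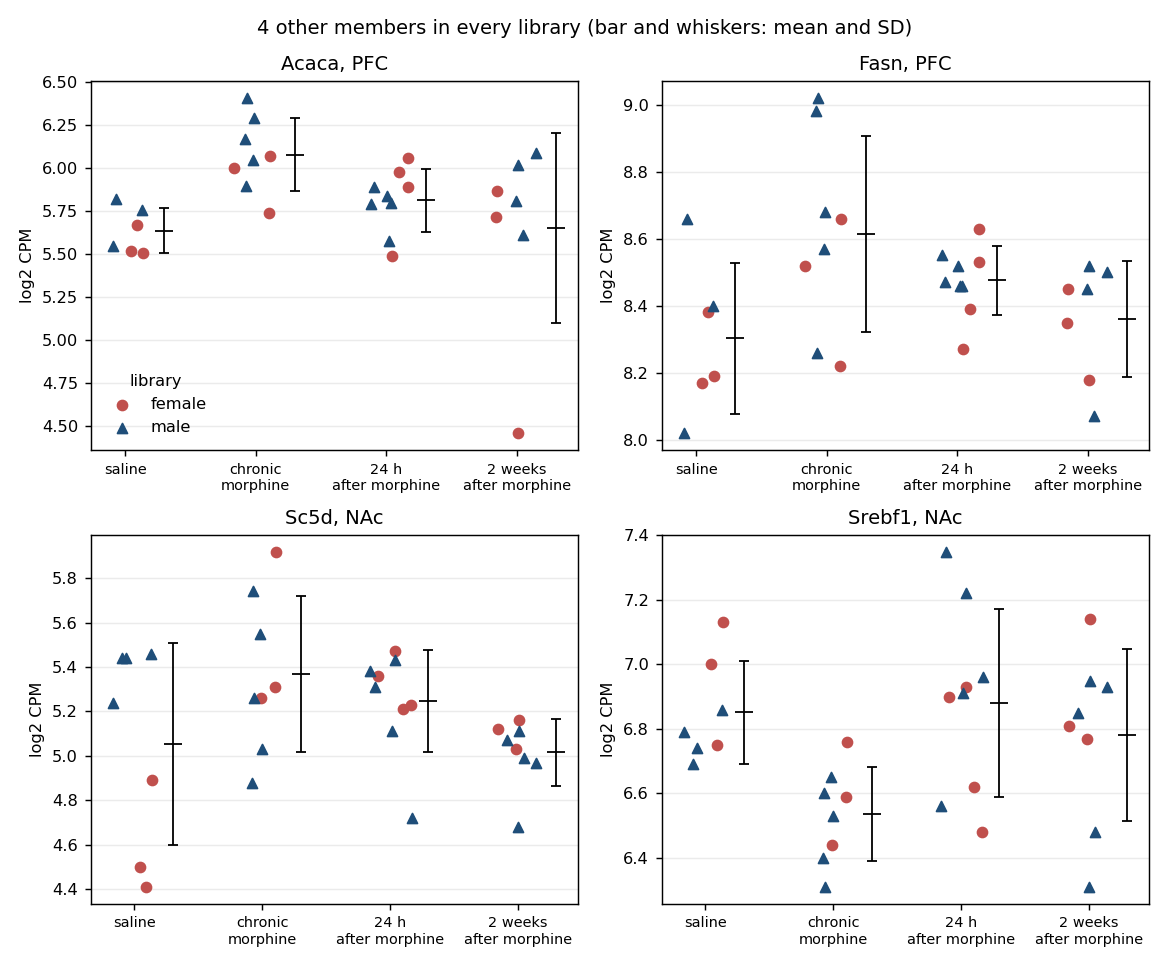
Acaca and Fasn in PFC and Sc5d and Srebf1 in NAc in every library (log2 CPM, points by sex), with the mean and SD of each group. Acaca under chronic morphine runs from 5.74 to 6.41 beside 5.51 to 5.82 in saline, and the low saline libraries of Sc5d, from 4.41 to 4.89, are the 3 females.

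Between stages, 0 members were called for 24 h or 2 weeks against chronic morphine in either region, while 0.0278% and 0.824% of all genes were called in PFC and 0.087% and 1.88% in NAc. At an unadjusted p under 0.05 there were 0 and 5 members in PFC and 3 and 5 in NAc. These counts were not set beside a share of all genes, so they are not read as a result. DESeq2 called 2 members at 2 weeks against chronic morphine in NAc, Nsdhl and Sc5d, and 0 in the other 3 contrasts. It called 0.195% and 2.4% of all genes in PFC and 0.664% and 3.2% in NAc. Nsdhl, the sterol C4 decarboxylating enzyme, had the estimate nearest to the threshold in edgeR and was singled out after its values were seen. It ran from 3.99 to 4.94 log2 CPM under chronic morphine (median 4.24) and from 3.79 to 4.17 at 2 weeks (median 3.96), a difference of -0.44 ± 0.12 (SE, edgeR adjusted p = 0.0607).

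Whether the stage effects differed between the regions was tested over both. edgeR called 7 of 19266 genes (0.0363%) and 0 of the 31 members. Of these, 1 (Ebp) had an unadjusted p under 0.05, a count not set beside a share of all genes. DESeq2 called 0 members and 0.151% of all genes. For Insig1 the chronic difference was -0.70 in PFC and -0.34 in NAc, and these effects were not shown to differ.

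Males and females were compared across stages. edgeR called 0 members in PFC and 0 in NAc, where 0.0334% and 0.0598% of all genes were called. An unadjusted p under 0.05 was found for 1 and 0 members, counts not set beside a share of all genes. DESeq2 called 0 in both, where it called 0.0278% and 0.087% of all genes. In NAc 27 of the 31 estimates were above 0 in males, with a median of 0.05 beside 0.01 for all genes, while the 10 oligodendrocyte markers were below 0 (median -0.17, 0 called). The test of stage effects that differ by sex called 0 members in PFC and 0 in NAc (0% and 0.0544% of all genes). It had 1 and 2 members at an unadjusted p under 0.05, counts not set beside a share of all genes. DESeq2 called 0 members in this test, beside 0.262% and 0.522% of all genes. For Sc5d in NAc the chronic effect in males minus that in females was -0.99 ± 0.25, the effect at 24 h -0.89 ± 0.24 and that at 2 weeks -0.92 ± 0.25, and the adjusted p over the stages was 0.268 in edgeR. The 3 estimates share the saline libraries, whose females were low. With 2 surrogate variables in the model Sc5d was called in this test (edgeR adjusted p = 0.00377), where 0.228% of all genes were called. In PFC the chronic effect on Insig1 in males minus that in females was 0.78 ± 0.30, with saline females at 6.58, 6.85 and 7.4, saline males at 6.30, 6.46 and 6.73, chronic females at 5.78, 5.90 and 6.00 and chronic males from 5.90 to 6.56. The 3 females of each group did not overlap and males did. That was seen after the values were known and was not set beside a share of all genes. The edgeR adjusted p of this difference was 1.

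The largest differences among the members were between the regions. NAc and PFC differed in 25 of the 31 members, of which 20 were lower in NAc and 5 higher. The share called, 80.6%, stands beside 66.2% of the 19266 genes tested, of which 36.5% were higher in NAc and 29.7% lower. The members' median log2 difference of NAc from PFC was -0.41, and that of all genes was 0.07. The library ranges of the regions overlapped for each of the 31 members, while they were apart for 4.41% of all genes.

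Most of those lower in NAc were sterol genes. From mevalonate to squalene 7 of 9 were lower and 1, Ggps1, was higher, and from squalene to cholesterol 8 of 10 were lower and 0 higher. Hsd17b7 (chromosome 1, 169949535 to 169969241) had the largest difference. Over the libraries it stood at 1.53, 2.39 and 2.80 log2 RPKM in PFC and at 1.34, 1.57 and 1.91 in NAc, and the log2 difference was -0.79 ± 0.06 (SE, edgeR adjusted p = 3.59e-16). Mvd stood at 2.20, 3.71 and 4.23 log2 RPKM in PFC and 2.62, 2.97 and 3.51 in NAc, a difference of -0.77 ± 0.07 (SE, edgeR adjusted p = 5.52e-14). Both ranges overlapped, and the lowest PFC value of Mvd was that of the shallow library. That library was also far below its group in Hsd17b7, at 3.82 log2 CPM (the others 4.6 to 5.02). Without it and the NAc libraries of low striatal markers, the differences were -0.825 for Hsd17b7 and -0.811 for Mvd.

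Of the 4 regulators and carriers, 3 were lower in NAc and 1 was higher. Insig1 stood at 4.22, 4.75 and 5.84 log2 RPKM in PFC and 3.40, 4.07 and 4.94 in NAc, a difference of -0.71 ± 0.09 (SE, edgeR adjusted p = 2.4e-10). The SREBP genes differed in opposite directions. Srebf2, the regulator of sterol genes, was lower in NAc by a log2 difference of -0.45 ± 0.04 (SE, edgeR adjusted p = 1.69e-14). Srebf1 was higher by 0.28 ± 0.06 (SE, edgeR adjusted p = 3.43e-05), with 3.38, 3.90 and 4.82 log2 RPKM in PFC and 3.76, 4.20 and 4.78 in NAc.

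The fatty acid genes were divided, with 3 of 8 higher in NAc, 2 lower and 3 not called. Acly (chromosome 11, 100476353 to 100528000) had the largest difference upward. It stood at 4.94, 5.20 and 5.49 log2 RPKM in PFC and 5.46, 5.80 and 6.53 in NAc, so that the ranges met only at their ends, and the difference was 0.68 ± 0.06 (SE, edgeR adjusted p = 7.78e-16). Elovl6 was higher by 0.21 ± 0.06 (SE, edgeR adjusted p = 0.00436), with 2.77, 3.20 and 3.59 log2 RPKM in PFC and 2.92, 3.41 and 3.97 in NAc. Fasn was higher by 0.12, while the desaturases of polyunsaturated fatty acids were lower, Fads1 by -0.52 and Fads2 by -0.33. Scd1 and Scd2, the stearoyl-CoA desaturases, had differences of -0.18 and 0.08 and were not called.

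**Figure D4:**
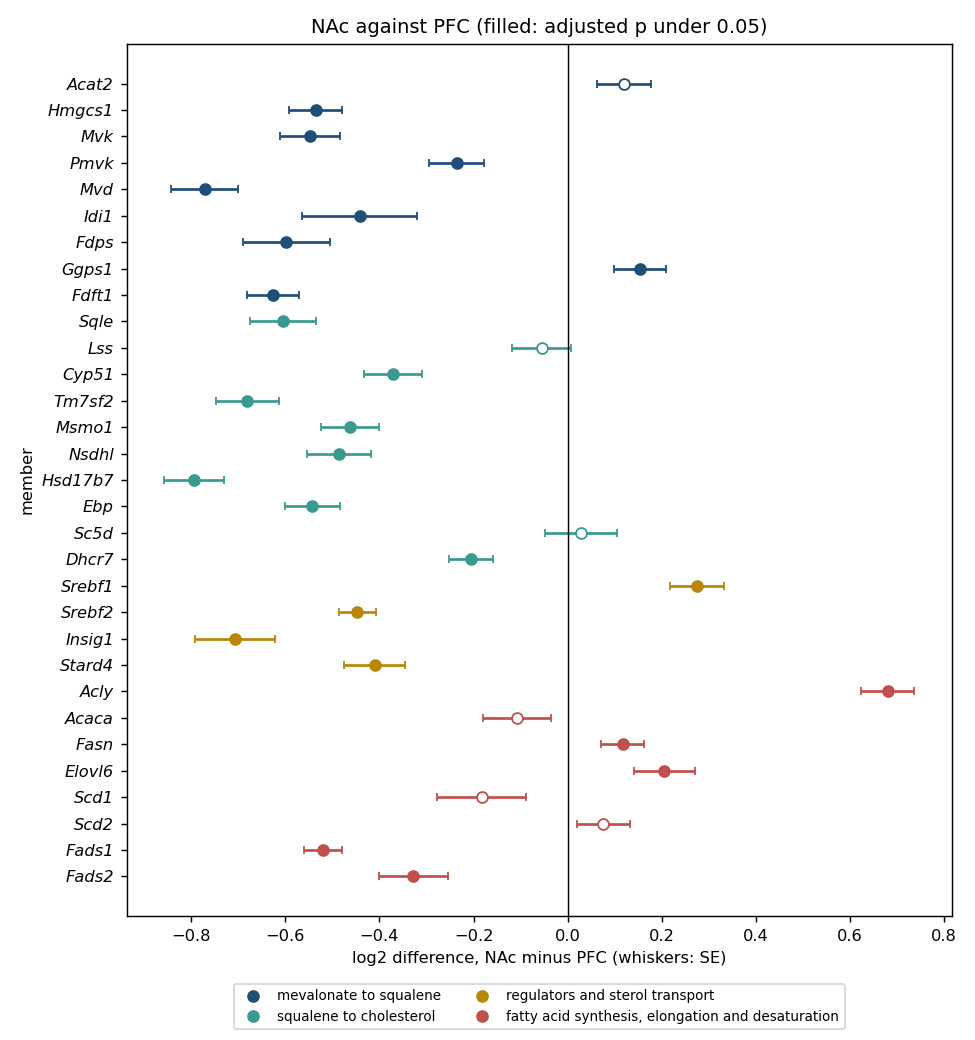
Log2 difference of NAc from PFC with its SE for the 31 members, coloured by role group, filled where the edgeR adjusted p is under 0.05. The sterol genes lie mostly left of 0, down to -0.79 for Hsd17b7, and Acly lies farthest right at 0.68.

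Of 15 further SREBP pathway genes, 14 were called, 9 lower and 5 higher in NAc, beside 66.2% of all genes called. The lower ones included Tmem97 (-0.95), Acss2 (-0.81), Me1, Scap, Rdh11 and Mbtps2, and the higher ones were Slc25a1 (0.61), Mbtps1, Insig2, Lpin1 and Elovl5. Acss2 makes acetyl-CoA from acetate, and Scap encodes the escort of the SREBPs. Of 14 genes of LXR signalling, efflux and cholesterol turnover, 10 were called (71.4%, near the share of all genes), 6 lower (Ch25h, Lcat, Nr1h2, Cyp46a1, Abcg4 and Lpcat3) and 4 higher (Abca1, Cyp27a1, Npc2 and Abcg1). Cyp46a1, which turns cholesterol into 24S-hydroxycholesterol in neurons, was lower by a log2 difference of -0.68 ± 0.07 (SE, edgeR adjusted p = 3.39e-12). Abca1, a cholesterol exporter, was higher by 0.88 ± 0.12 (SE, edgeR adjusted p = 9.21e-09). Against saline, 0 of these 15 and 0 of these 14 genes were called at any stage in either region, with 0 to 4 of the 15 and 0 to 3 of the 14 at an unadjusted p under 0.05, beside 3.01% to 15.2% of all genes.

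Markers of cell types moved with the region. All 10 oligodendrocyte markers were higher in NAc, with a median log2 difference of 0.66, and all 5 neuron markers were lower, with a median of -0.92. Of 6 astrocyte markers 4 were lower and 1 higher (median -0.43). The neuron marker mean ran from 9.30 to 9.81 log2 CPM in PFC and from 8.46 to 9.12 in NAc, without overlap, so a neuron difference and the region cannot be told apart here. When the neuron marker mean was added to the model, a choice made with the data already seen, 4 members were called (2 lower and 2 higher) beside 14% of all genes, and the members' median was 0.09. With the oligodendrocyte marker mean as a covariate 25 were called, 24 of them lower, with a median of -0.48 and 54.2% of all genes called. Without the 4 NAc libraries of low striatal markers and the shallow PFC library, 24 were called, 22 lower and 2 higher, beside 66.6% of all genes. In saline libraries alone 19 were called, 16 lower and 3 higher, beside 47.2% of all genes.

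Within a region the members varied together from library to library in NAc more than in PFC. As a description without a test, each library's deviation from its treatment-by-sex mean was correlated between members. In NAc the median r over the 465 pairs was 0.53 (32 libraries), and 54.4% of pairs were over 0.5. With all other genes the members' median r was 0.01, and 13.2% were over 0.5. The highest pairs were Scd1 with Scd2 (0.96) and Hmgcs1 with Sqle (0.95). In PFC the median was 0.09 (30 libraries) with 19.6% of pairs over 0.5, beside 12.8% with all other genes. Without the shallow library the PFC median was 0.13, with 15.5% of pairs over 0.5 beside 5.64% with all other genes. The difference between the regions was not tested.

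By role, the NAc medians were 0.63 among fatty acid genes, 0.56 among mevalonate genes, 0.49 among regulators and 0.38 from squalene to cholesterol. Cyp51 had the highest median r with the other members (0.78), followed by Hmgcs1 (0.76), Sqle (0.75) and Nsdhl (0.73). Hsd17b7 (0.04), Mvd (0.16), Ebp, Srebf2 (0.22 each) and Dhcr7 (0.24) had the lowest. Insig1 had a median r of 0.72.

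In the NAc libraries where the members were highest, striatal markers were below their group mean. Chronic morphine replicate 25 had a median member deviation of 0.40, with 28 of 31 members above their group mean, and saline replicate 6 and chronic replicate 29 had 0.31 with 29 of 31. In chronic replicate 31 all 31 members were above their mean (median 0.20). Saline replicate 2 had 0.18 and 24 h replicate 23 had 0.17. The striatal marker deviations of these 6 libraries were -2.68, -2.54, -1.11, -0.31, -1.62 and -1.11 in the order given. At the other end, 2 weeks replicate 14 had a median of -0.23 with a striatal deviation of 0.92. The oligodendrocyte deviations of the 6 high libraries were 0.52, 0.27, 0.72, -0.53, 0.11 and 0.73. Their astrocyte deviations were 0.33, 0.10, 0.24, 0.21, 0.23 and 0.19, and their neuron deviations 0.18, 0.10, 0.04, 0.26, 0.09 and 0.13. In 2 weeks replicate 14 the oligodendrocyte, astrocyte and neuron deviations were -0.76, -0.30 and -0.13. The part of these cell types in the members' values was not tested. Without the 4 libraries of low striatal markers the median r was 0.47, and without the 3 libraries of highest deviation it was 0.46. The points share library, depth and dissection, and their part in these correlations was not tested.

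**Figure D5:**
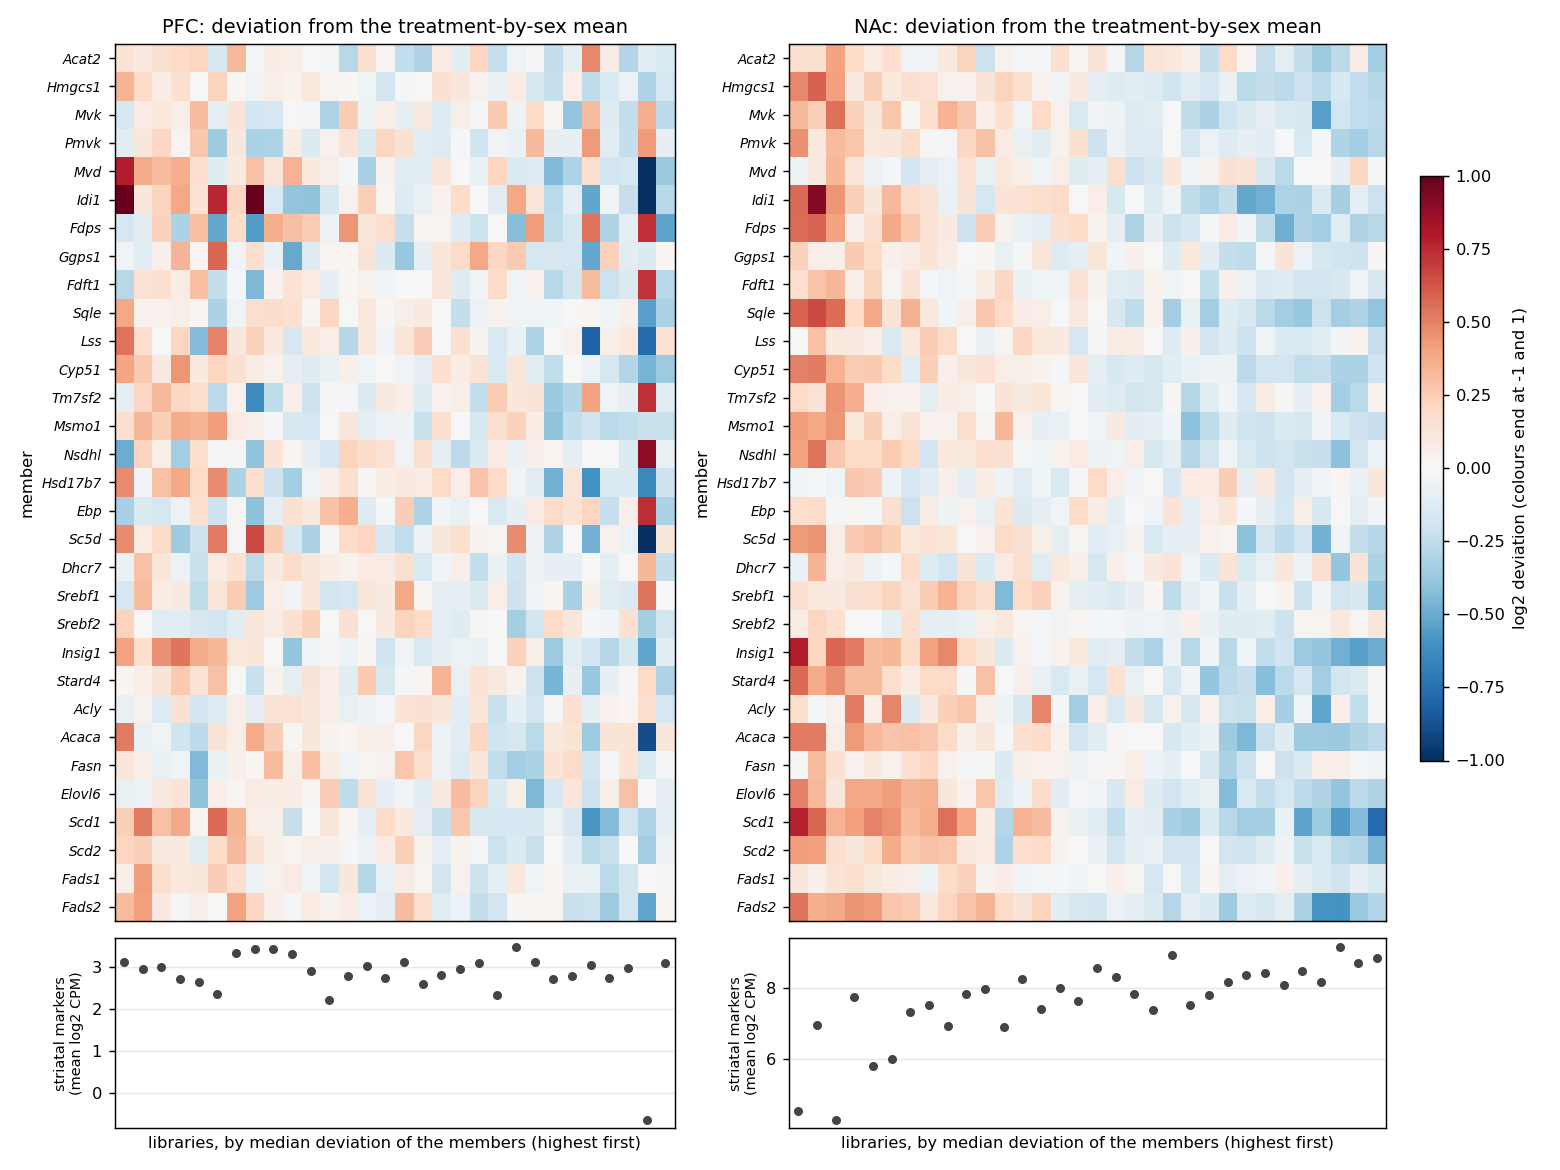
Deviation of each member from its treatment-by-sex mean (log2, colours) in each PFC and NAc library, ordered by the median of the members, over the striatal marker mean of the same library (log2 CPM). In NAc most of a column is red at the left end and blue at the right end, with medians from 0.40 to -0.23, and striatal markers are lowest on the left, while the PFC columns are mixed.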

How the data were processed

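RNA of mouse prefrontal cortex (30 libraries) and nucleus accumbens (32) was sequenced as paired reads, per the labels' protocols. The deposited values are raw counts per gene. The submitters' processing notes list FastQC, cutadapt, STAR, RSEM, Trimmomatic and HISAT2 and the builds GRCm38 and Rnor_6.0 with no role. The counting program, annotation and strand setting are not given in the sources used here. Gene totals were 5182601 to 41532464 in PFC and 22387525 to 43963295 in NAc. Rows that name no gene (medians of 5.43% no feature, 0.832% ambiguous, 0.334% low quality, 0.566% not aligned, 14.7% aligned in several places) were left out of library sizes and tests. The rat libraries were not used here, and some genes of the pathway lists are not reported here by name.

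Symbols and coordinates came from the GENCODE M21 annotation of GRCm38, which may not be the one counted with. The tests were edgeR's quasi-likelihood test (edgeR 4.0.16, R 4.3.3) with TMM factors and filterByExpr, a mean for each treatment and sex, and contrasts averaged over the sexes. Benjamini-Hochberg adjustment ran over all genes tested, and a gene was called at an adjusted p under 0.05. log2 CPM used a prior count of 2. Alternatives were median-of-ratios factors, no filter, DESeq2 1.42.0, an oligodendrocyte marker covariate, no sex term, 2 surrogate variables (sva 3.50.0), each library left out, and, between regions, a replicate block and saline libraries alone. Leaving out libraries of low striatal markers or the shallow library, and a neuron marker covariate, were chosen after seeing the data.

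The members and gene lists were chosen with earlier results of these data known. Values are given for every called member and, per role group and contrast with saline, for the highest and lowest estimates; between regions, for the 3 largest called differences each way. The fit was tested on simulated data, with shares taken among changed genes that passed the filter. In the chronic contrast 24.5% of 1.5-fold and 61.7% of 2-fold changes were recovered in PFC (17629 genes tested). In NAc (18059 genes tested) these were 51% and 69.1%. Unchanged genes called were 8 in PFC and 10 in NAc.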

Additional observations from a re-analysis of the deposited data

Results flagged for a closer look

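Of 160 groups of 4 to 10 libraries examined for 20 members, 14 held a library far from the others of its group. Chance flags about 1 in 20 such groups. Of the 14, 8 were the shallow library, PFC 2 weeks after morphine replicate 10. In it Idi1 stood at -1.99 log2 CPM (the others 3.03 to 3.45), Sc5d at 3.39 (4.95 to 5.19), Mvd at 3.04 (4.42 to 4.98), Acaca at 4.46 (5.61 to 6.09), Lss at 4.0 (4.85 to 5.32), Hsd17b7 at 3.82 (4.6 to 5.02) and Sqle at 5.49 (6.2 to 6.42). The other value of the 8, Ebp, lay above its group at 5.26 (3.78 to 4.2).

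In PFC 24 h after morphine, replicate 20 was low in Lss at 4.01 log2 CPM (4.86 to 5.36) and in Fads2 at 6.48 (6.7 to 6.91). In PFC saline, replicate 6 was high in Lss at 5.31 (5.14 to 5.2). In NAc saline, replicate 6, a library of low striatal markers, was high in Mvk at 4.78 (3.91 to 4.25). Sc5d was low in NAc replicate 14 of the 2 weeks group at 4.68 (4.97 to 5.16) and in replicate 17 of the 24 h group at 4.72 (5.11 to 5.47).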

How the results depend on the processing

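The count of members called moved as follows, and the causes were not tested. Without sex in the model it was 0 in PFC under chronic morphine (1 in the report). With 2 surrogate variables it was 2 in PFC at 2 weeks against chronic morphine, and in NAc 4 under chronic morphine, 2 at 24 h, 4 at 24 h and 4 at 2 weeks against chronic morphine, and 1 in the test of stage effects by sex, each 0 in the report. That fit called 1.34% of all genes in the PFC contrast and 4.91%, 1.2%, 0.996%, 6.66% and 0.228% in those of NAc. In NAc, DESeq2 called 1 under chronic morphine and 2 at 2 weeks against chronic morphine, and the oligodendrocyte covariate called 1 under chronic morphine. Between regions it was 4 with the neuron covariate, and 25 to 27 when single libraries were left out. Leaving out single libraries gave 0 to 2 in PFC under chronic morphine. It gave 0 to 1 in PFC at 2 weeks against chronic morphine (1 without replicate 9 or 10). In NAc it gave 0 to 1 under chronic morphine (1 without 24 h replicate 17 or chronic replicate 30). At 2 weeks against chronic morphine in NAc it gave 0 to 1 (1 without chronic replicate 26, 28 or 32). For these fits the share of all genes called is given only without PFC 2 weeks replicate 10. There it was 0.96% under chronic morphine and 0.95% at 2 weeks against chronic morphine, beside 0.417% and 0.824% with all libraries.

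Some log2 differences that were not called changed sign. With the oligodendrocyte covariate in PFC at 24 h, Fdps was -0.038 and Idi1 0.141. With 2 surrogate variables Idi1 in PFC at 2 weeks was 0.053, and Fads2 in NAc was 0.098 at 24 h and 0.06 at 2 weeks. Without sex in NAc, Idi1 at 24 h was -0.009 and Sc5d at 2 weeks -0.089. Without the libraries of low striatal markers Fads2 was 0.065 at 24 h and 0.121 at 2 weeks. With single libraries left out, Stard4 under chronic morphine ran from -0.007 to 0.173 in PFC and from -0.056 to 0.202 in NAc, and Srebf2 in PFC at 24 h from -0.031 to 0.101. In NAc at 24 h Idi1 ran from -0.038 to 0.118, Srebf1 from -0.029 to 0.071 and Fads2 from -0.167 to 0.032, and at 2 weeks Sc5d from -0.012 to 0.115 and Fads2 from -0.146 to 0.05.

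With the replicate block, 27 members were called between regions and 0 for stage effects that differ between them, beside 64.4% and 0.0364% of all genes. Over 30 pairs of PFC and NAc libraries of 1 number, the deviations correlated at 0 to 0.24 (median 0.09), 10 were over 0.1 and 16 were best with their own number, while 95 other pairs had a median of -0.02. Not every pair was over 0.1 and the labels name no shared animal, so the block was not taken as the main fit, and whether a number marks 1 animal is unknown.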
